A study of Corbicula fluminea with 24 samples.

Results

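Asian clams (Corbicula fluminea) held in cages below either of a pair of effluents were compared with clams held at a reference site, by RNA sequencing of the digestive gland. The effluent group joined 8 clams caged below a wastewater treatment plant (WWTP) and 8 clams caged below an urban runoff outlet, with each site given equal weight, and the reference group held the 8 clams of the reference site. The libraries were chosen by the site named in the labels, and together they are all 24 libraries of the series. All clams were caged from December to March; no source used here gives their origin, age and sex or the chemistry of the water. Each site had 1 caging, so p-values measure the spread between animals, and effects of site and of cage cannot be told apart.

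Bivalves filter particles from the water, and their digestive gland takes up and digests that food, stores lipid and handles foreign compounds and metals. Effluents from treatment plants and streets carry mixtures of organic compounds, metals, nutrients and microbes, so an animal placed below them meets chemical and microbial exposure together. Genes of foreign compound metabolism, immune recognition, stress proteins, lipid handling and signalling are often read in this organ for that reason. Bivalves lack antibodies and rely on innate recognition by lectins, fibrinogen-related proteins and other effectors.

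Total counts, in units of 1e6, lay between 40.45 and 97.7 in effluent libraries (median 58.44, mean 61.64 ± 14.83, SD, n = 16) and between 60.1 and 85.1 in reference libraries (median 72.59, mean 71.03 ± 8.064, SD, n = 8), a difference within the spread between clams (two-sided exact permutation test, p = 0.111, adjusted p = 0.444 over 8 library measures). Within lane 3 the difference was -0.589 (exact permutation p = 0.962) and within lane 4 it was -18.19 (exact permutation p = 0.0141). Contigs detected averaged 58050 in effluent and 58150 in reference libraries (exact permutation p = 0.029, adjusted p = 0.232 over the 8 measures). The first principal component held 58.8% of the variance and followed digestive enzymes, which were low where it was high. It averaged -8.235 in effluent and 16.48 in reference libraries (two-sided exact permutation test, p = 0.692), with a difference of -119.3 in lane 3 (exact permutation p = 0.234) and 69.82 in lane 4 (exact permutation p = 0.402). The endoglucanase GUN, a marker of the digestive gland, was present in every library but ranged from 2.74 to 1080 CPM (counts scaled to 1e6 per library after size correction), and the amylase Amy.1.2 ranged from 3.33 to 832 CPM. Summed over the 23 tested digestive and lysosomal hydrolases, effluent libraries held 466.4 to 2717 CPM (median 1536) and reference libraries 476.1 to 2255 CPM (median 1678; exact permutation p = 0.94). Transcripts of muscle summed to 820.7 to 14980 CPM in effluent and 1019 to 4297 CPM in reference libraries (exact permutation p = 0.797), those of cilia and tubulin to 4519 to 12580 CPM in effluent and 5690 to 12570 CPM in reference libraries (exact permutation p = 0.792), and those of the germline to 145.2 to 15810 CPM in effluent and 1211 to 9089 CPM in reference libraries (exact permutation p = 0.793). In bulk tissue, fewer cells of a type and less RNA per cell cannot be told apart. The part of tissue makeup in the gene results was not tested, apart from the settings named below.

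Few named genes differed between effluent and reference clams in edgeR, the main test, and nearly all that did were lower in effluent. SAA2.2.2, a serum amyloid A of the acute-phase protein family, was the only symbol that this test called higher. GNAS, a G protein subunit, ACSL1 and Bscl2, which act in lipid handling, higd2a of respiratory chain assembly, the ubiquitin ligase RNF34, the membrane proteins Macoilin and PLXA1 and the protease inhibitor VKT2 fell. The last symbol to pass, agr-1, did so through 1 reference library. Of 1584 tested contigs with a gene symbol, 10 passed edgeR's quasi-likelihood test at 0.05 after Benjamini-Hochberg adjustment (0.631%), 1 higher (0.0631%) and 9 lower (0.568%). Over all 57593 contigs tested, 292 passed (0.507%), 129 higher (0.224%) and the others lower (0.283%). Symbols were therefore called at about the rate of all contigs. An unadjusted p under 0.05 was reached by 7002 contigs (12.2%), 3443 higher (5.98%) and 3559 lower (6.18%).

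The direction of the difference varied with the kind of name a contig carries. Contigs named by a locus number or tag had 20 calls higher (0.104% of 19236) and 118 lower (0.613%), whereas contigs with only a number had 108 higher (0.294% of 36773) and 36 lower (0.0979%), or 0.717% and 0.392% called in either direction. At the unadjusted threshold of 0.05, 52 symbols were higher (3.28%) and 131 lower (8.27%), 466 locus-named contigs were higher (2.42%) and 2036 lower (10.6%), and 2925 number-only contigs were higher (7.95%) and 1392 lower (3.79%). The split varied with abundance. At a mean of 2 to 10 CPM 2.16% of locus-named contigs were higher and 14.3% lower, and 10.1% of number-only contigs were higher and 3.64% lower. Under 2 CPM, where 15159 of the number-only contigs lie, these were nearly even (4.84% higher and 4.27% lower), with 2.12% and 9.62% for locus-named contigs. At 100 CPM and over, 1.99% of locus-named contigs were higher and 2.92% lower, and 6.04% of number-only contigs were higher and 0.377% lower. Of the 134 symbols at that abundance, 2 were higher and 0 lower. The split also did not hold under every setting. With libraries scaled by their totals alone, 1096 number-only contigs were higher and 1699 lower, and within lane 4 alone 98 symbols were higher and 81 lower. Median log2 fold changes were small, at -0.033 for symbols, -0.054 for contigs with a locus name and 0.047 for those with only a number.

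**Figure D1:**
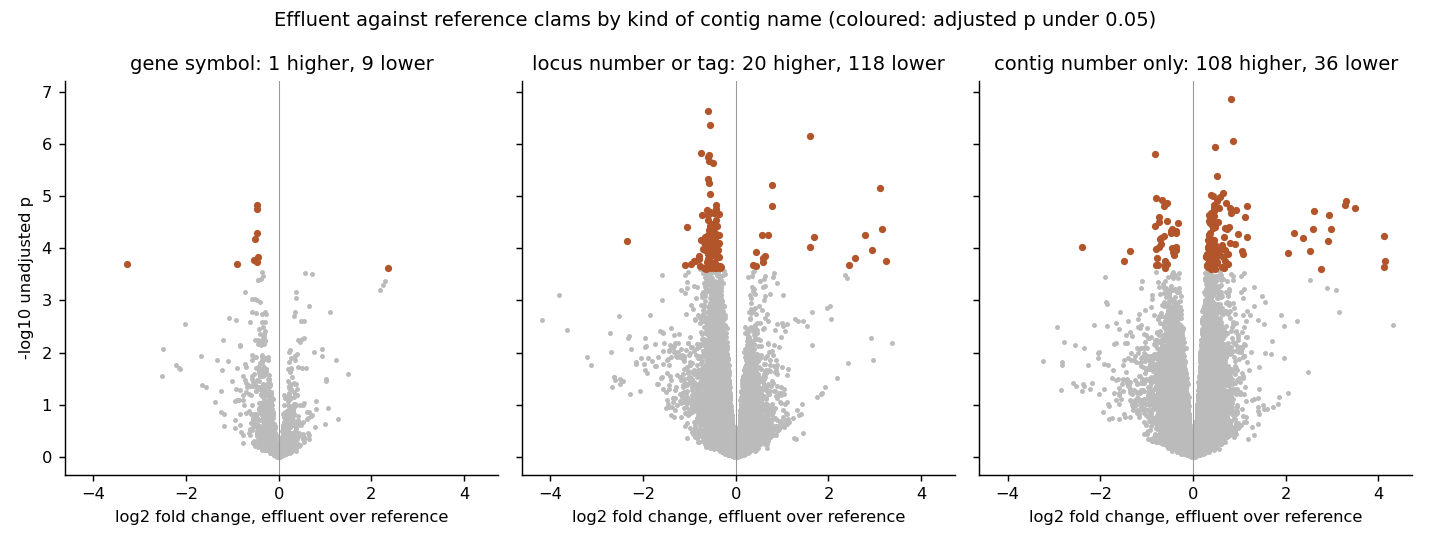
Log2 fold change of effluent over reference clams against -log10 of the unadjusted p in edgeR, 1 point per contig, in panels by kind of contig name; coloured points have an adjusted p under 0.05. Of the symbols 1 was called higher and 9 lower, of the locus-named contigs 20 and 118, and of the number-only contigs 108 and 36; with libraries scaled by their totals alone only 4 contigs in all were called, each lower.

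The largest rise of a named gene was in the immune list. SAA2.2.2 belongs to serum amyloid A, proteins that in vertebrates bind lipid and climb during infection or injury. It stood between 1.496 and 20.9 CPM in the 16 effluent clams (median 6.30) and between 0.432 and 4.70 CPM in the 8 reference clams (median 1.148). All 16 effluent clams lay above the reference median, but the ranges overlapped, mostly through reference individual 30 at 4.70 CPM (the next reference clam was at 1.739 CPM). This was a rise of 2.36 on the log2 scale (SE 0.544, edgeR adjusted p = 0.0482). It was 2.60 for WWTP against reference and 2.13 for urban runoff against reference, comparisons that share the reference clams, and the effluent sites did not differ in a test of their own (log2 difference 0.46, SE 0.554, edgeR unadjusted p = 0.411). Its adjusted p passed the threshold in 5 of the 24 fits that each left out 1 library, and reached 0.122 without reference individual 31. SAA2.2.2 also passed in 5 of 13 alternative settings. The settings where it lost the call include upper-quartile factors, lane as a term and 1 effluent column. The log2 fold change was 1.81 with the first principal component as a term (edgeR adjusted p = 0.0537).

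The other serum amyloid A contigs did not pass. SAA2.1.2, the second contig of the same name, had 1.21 to 22.5 CPM in effluent clams (median 4.93) and 1.36 to 11.3 CPM in reference clams (median 1.97), a log2 fold change of 0.81 (SE 0.502, edgeR adjusted p = 0.575). SAA had 5.53 to 29.0 CPM in effluent clams (median 11.4) and 6 to 29.2 CPM in reference clams (median 7.663; log2 fold change 0.37, SE 0.312, edgeR adjusted p = 0.744). Both sets of clams covered almost the same range for SAA. Where a symbol ends in numbers such as 2.2, several contigs carry it and reads may be divided among them, so values of single contigs are uncertain to that extent.

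Apart from SAA2.2.2, genes of immune recognition and effectors gave no call and had a share of lower members near that of all symbols. Of 108 tested members, 1 rose and 0 fell at an adjusted p of 0.05, while the unadjusted threshold found 1 higher and 11 lower, with a median log2 fold change of -0.071 (edgeR; over all symbols 52 of 1584 higher, 3.28%, and 131 lower, 8.27%, with a median of -0.033; DESeq2 called 1 higher and 2 lower, limma-voom 1 higher and 3 lower). Lane 3 alone had 1 higher and 4 lower unadjusted, and lane 4 alone 2 higher and 12 lower. The members named here and in the lists that follow, apart from those that passed, had an adjusted p between 0.05 and 0.2 or are said to be further examples, and were chosen after their values were seen. Fcer2.1.3, named for a low-affinity immunoglobulin E receptor with a C-type lectin domain, had 1.43 to 8.94 CPM in effluent clams (median 3.08) and 2.89 to 9.90 CPM in reference clams (median 7.55; log2 fold change -0.92, SE 0.27, edgeR adjusted p = 0.126). FCER2.2.4 was at -0.83 (SE 0.282, edgeR adjusted p = 0.196) and the lectin CLC4M.3.3 at -0.84 (SE 0.284, edgeR adjusted p = 0.191). CLC4M.3.3 reached 5.68 CPM at most in reference clams, where the median was 1.59 CPM. With 1 library left out its log2 fold change ran from -0.95 to -0.51, and its edgeR adjusted p was 0.53 without reference individual 30. The chitin-binding receptor FBCD1.2.6, which carries a fibrinogen domain, had 5.44 to 8.92 CPM in effluent and 7.63 to 10.4 CPM in reference clams (log2 fold change -0.27, SE 0.0758, edgeR adjusted p = 0.11). RELB, a subunit of the NF-kappa-B transcription factors, was at -0.30 (SE 0.0937, edgeR adjusted p = 0.151), with -0.54 for WWTP and -0.065 for runoff against reference, and the effluent sites differed (edgeR adjusted p = 0.0382).

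For a further pair of the immune members the value turned on a single reference clam. The fibrinogen-like FGL2.3.3 reached 28.8 CPM at most in reference clams, where the median was 0.762 CPM, and had 0.375 to 2.17 CPM in effluent clams (median 0.979). Its log2 fold change of -2.02 (SE 0.606, edgeR adjusted p = 0.135) was 0.45 without reference individual 30, 0.011 in lane 3 alone and 0.41 in DESeq2. The asialoglycoprotein receptor ASGR1.1.3 had 0.989 to 4.65 CPM in effluent and 1.82 to 23.3 CPM in reference clams (log2 fold change -1.20, SE 0.395, edgeR adjusted p = 0.177). Without reference individual 30 it was -0.16 (edgeR adjusted p = 0.955).

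Interferon-type and antiviral genes had no call among 54 tested members (edgeR; DESeq2 and limma-voom each called 1 higher), with 5 higher and 3 lower unadjusted (over all symbols 3.28% higher and 8.27% lower) and a median log2 fold change of 0.027 (-0.014 with library totals alone and -0.088 in lane 4). In vertebrates these genes are switched on by interferon during viral infection. ifi44_bis, named for an interferon-induced protein, had 0.971 to 7.72 CPM in effluent clams (median 2.51) and 0.339 to 2.21 CPM in reference clams (median 1.346). It stood at a log2 fold change of 1.11 (SE 0.312, edgeR adjusted p = 0.108), with 1.55 for WWTP and 0.67 for runoff against reference, and 15 of 16 effluent clams lay above the reference median. The transcription factor stat4 was at 0.56 (SE 0.181, edgeR adjusted p = 0.169) and the interferon-inducible GTPase IIGP1 at 0.41 (SE 0.135, edgeR adjusted p = 0.176). Within lane 3 alone 2 members were higher and 1 lower at the unadjusted threshold, and within lane 4 alone 3 and 3.

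**Figure D2:**
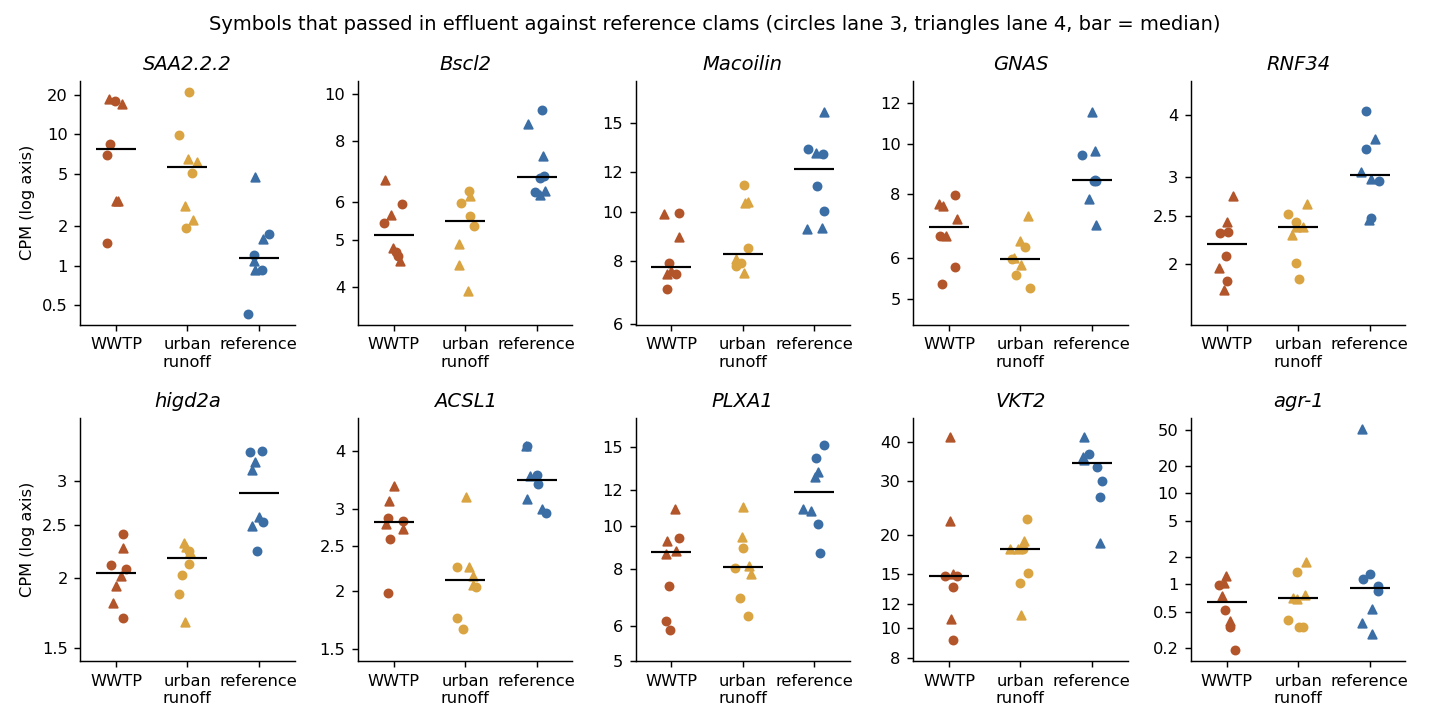
CPM of each library (log axes) at the WWTP, urban runoff and reference sites for the 10 symbols with an adjusted p under 0.05; circles are lane 3, triangles lane 4 and bars site medians. SAA2.2.2 is high at both effluent sites, 8 symbols are low at both, and for agr-1 a single reference clam at 51.19 CPM stands above all other libraries.

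The 27 genes of foreign compound metabolism, the enzymes that oxidise and conjugate foreign and some body-made compounds, had the highest median log2 fold change of the 26 lists with at least 5 tested members, at 0.22, against -0.033 over all symbols. It was 0.46 in lane 3 and 0.048 in lane 4. None passed (edgeR; DESeq2 called 2 higher and 1 lower, limma-voom 2 higher and 0 lower), and 4 were higher and 2 lower without adjustment (over all symbols 3.28% higher and 8.27% lower). ADHX.2.2, a class III alcohol dehydrogenase that clears formaldehyde bound to glutathione, had 21.2 to 291.6 CPM in effluent clams (median 77.5) and 3.06 to 41.8 CPM in reference clams (median 14.7). The difference, 2.29 on the log2 scale (SE 0.557), missed the threshold (edgeR adjusted p = 0.06), although all 16 effluent clams lay above the reference median; the ranges overlapped. The other contig of the name, ADHX.1.2, had 11.9 to 173 CPM in effluent and 2.05 to 28.5 CPM in reference clams (log2 fold change 2.19, SE 0.554, edgeR adjusted p = 0.0713). Each ADHX contig passed in 3 of 13 alternative settings, namely DESeq2, limma-voom and the first principal component as a term. In these settings they were the 2 members called higher. As further examples, the cytochrome P450 contigs CP2U1.1.2 and CP2U1.2.2 went opposite ways. CP2U1.1.2 averaged 186 CPM in effluent and 96.5 CPM in reference clams (0.94 on the log2 scale, SE 0.343, edgeR adjusted p = 0.233), and CP2U1.2.2 averaged 10.04 ± 1.09 CPM in effluent and 12.26 ± 1.702 CPM in reference clams (SD, n = 16 effluent and 8 reference; log2 difference -0.29, SE 0.0815, edgeR adjusted p = 0.108).

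The ADHX values ran alongside those of contigs that carry no symbol. contig_19638 had 42.4 to 1120 CPM in effluent clams (median 205.4) and 7.38 to 63.4 CPM in reference clams (median 27.1), with all 16 effluent clams above the reference median. This gave a log2 fold change of 3.29 (SE 0.596; edgeR adjusted p = 0.0239), with 2.89 for WWTP and 3.69 for runoff against reference. Across the 24 libraries the Pearson r of log2 CPM with contig_19638 was 0.963 for ADHX.2.2 and 0.96 for ADHX.1.2, given as a description of libraries that share their sites. Runoff individual 56 was highest for contig_19638 (1120 CPM) and for ADHX.2.2 (291.6 CPM). contig_33140 had 0.83 to 69.6 CPM in effluent clams (median 8.61) and 0.727 to 3.34 CPM in reference clams (median 0.879). On the log2 scale the difference was 3.49 (SE 0.646, edgeR adjusted p = 0.0239), with 4.33 for WWTP and 2.66 for runoff against reference, and 15 of 16 effluent clams lay above the reference median. WWTP clams stood above runoff clams in contig_33140 by 1.67 (SE 0.63, edgeR unadjusted p = 0.0142, adjusted p = 0.212 over all contigs). For contig_19638 that difference was -0.80 (SE 0.58, edgeR unadjusted p = 0.182). The r between contig_33140 and contig_19638 was 0.742, and 17 further contigs called higher had an r over 0.9 with one or the other. For contig_33140 these were 3 locus-named and 6 number-only contigs, and for contig_19638 they were 4 and 5. Contigs that follow the same one of the pair are therefore not separate results. Both contig_33140 and contig_19638 lost the call without reference individual 29, 30 or 31, with an edgeR adjusted p of up to 0.0807. The table pairs neither contig with a gene or an organism.

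Genes of G protein signalling, which pass signals from cell surface receptors to messengers inside the cell, had 1 member that fell. GNAS, the alpha subunit that stimulates the making of cyclic AMP, had 5.25 to 7.96 CPM in effluent clams (median 6.40) and 6.95 to 11.5 CPM in reference clams (median 8.51). All 16 effluent clams lay below the reference median, and the ranges met only between 6.95 and 7.96 CPM. On the log2 scale the difference was -0.46 (SE 0.0857, edgeR adjusted p = 0.0239), with -0.38 for WWTP and -0.55 for runoff against reference, and the effluent sites did not differ beyond their spread (edgeR unadjusted p = 0.105). It failed in 4 fits with 1 library left out, without reference individual 21 (edgeR adjusted p = 0.0503), 29 (0.0521), 30 (0.0536) or 31 (0.0807).

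Other members of the list fell short of the threshold, with values of either sign. GNAQ, the alpha subunit that couples receptors to phospholipase C, had 11.5 to 19.5 CPM in effluent clams (median 13.8) and 15.2 to 21.6 CPM in reference clams (median 17.9; log2 fold change -0.34, SE 0.0818, edgeR adjusted p = 0.0557). GNAI, the inhibitory alpha subunit, had 37.3 to 55.3 CPM in effluent clams (median 45.3) and 42.8 to 73.5 CPM in reference clams (median 57.6; log2 fold change -0.32, SE 0.102, edgeR adjusted p = 0.159). ITPR, the calcium channel opened by inositol trisphosphate downstream of phospholipase C, was at -0.29 (SE 0.0956, edgeR adjusted p = 0.174). A contig of the calcium sensor calmodulin, CALM.3.18, went the other way, with 2.15 to 5.15 CPM in effluent clams (median 2.85) and 1.38 to 2.95 CPM in reference clams (median 2.16; log2 fold change 0.45, SE 0.151, edgeR adjusted p = 0.185). As further examples, other parts of these pathways had smaller differences. The beta subunit GBB was at -0.098 (SE 0.111, edgeR adjusted p = 0.847), the regulatory subunit of the cyclic AMP-dependent kinase KAPR at -0.081 (SE 0.101, edgeR adjusted p = 0.872; 0.20 for WWTP and -0.36 for runoff, with an edgeR adjusted p of 0.0239 between the effluent sites), and the alpha subunit contigs GNAO.1.2 and GNAO.2.2 at 0.16 and -0.29 (edgeR adjusted p = 0.746 and 0.828). Of 50 tested members of the G protein and neural list, 0 were called higher and 1 lower, with 3 higher and 7 lower unadjusted and a median of -0.096 (over all symbols 0.0631% called higher and 0.568% lower, 3.28% higher and 8.27% lower unadjusted, median -0.033). That median was -0.23 within lane 3, 0.14 within lane 4 and 0.0058 in limma-voom.

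Small GTPases, the switches that steer the cytoskeleton and vesicle traffic, gave no call among 26 tested members (edgeR; DESeq2 and limma-voom each called 2 lower, of 28 and 20 lower among all 1584 symbols), with 0 higher and 3 lower unadjusted (over all symbols 3.28% higher and 8.27% lower). CDC42, a regulator of actin and cell polarity, had 11.5 to 19.7 CPM in effluent clams (median 15.1) and 16.4 to 23.7 CPM in reference clams (median 20.2). All 16 effluent clams lay below the reference median (log2 fold change -0.36, SE 0.0847, edgeR adjusted p = 0.0536). RAB2, which acts in transport between the endoplasmic reticulum and the Golgi apparatus, had 11 to 22.4 CPM in effluent and 15.8 to 23.3 CPM in reference clams (log2 fold change -0.44, SE 0.106, edgeR adjusted p = 0.0595). For the list as a whole the median was -0.041, close to that of all symbols, and within lane 3 alone it was 0.098.

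Lipid and sterol genes had 2 members lower and 0 higher among 22 tested, and 0 higher and 4 lower unadjusted, with a median log2 fold change of -0.087. Over all 1584 symbols 1 was called higher and 9 lower, and 3.28% were higher and 8.27% lower unadjusted. ACSL1 joins long-chain fatty acids to coenzyme A, the step that commits them to storage or to oxidation. It had 1.66 to 3.36 CPM in effluent clams (median 2.42) and 2.95 to 4.10 CPM in reference clams (median 3.46), and all 16 effluent clams lay below the reference median. The difference was -0.50 in log2 (SE 0.103, edgeR adjusted p = 0.031). It was -0.32 for WWTP and -0.68 for runoff against reference, and WWTP clams stood above runoff clams by 0.36 (SE 0.122, edgeR unadjusted p = 0.00699, adjusted p = 0.152 over all contigs). It failed without WWTP individual 42 (edgeR adjusted p = 0.0563) or reference individual 20 (0.0728), 21 (0.0576), 29 (0.0701), 30 (0.0755) or 31 (0.0807).

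Bscl2, seipin, shapes lipid droplets where they bud from the endoplasmic reticulum. It had 3.93 to 6.65 CPM in effluent clams (median 5.39) and 6.19 to 9.26 CPM in reference clams (median 6.75). Again all 16 effluent clams lay below the reference median. Its log2 value was -0.44 (SE 0.097, edgeR adjusted p = 0.0393), with nearly equal values for WWTP (-0.44) and runoff (-0.43) against reference, and it held in 9 of 24 fits with 1 library left out (highest edgeR adjusted p 0.117, without reference individual 31). As further examples, pgs1, which makes a precursor of cardiolipin, and the acyltransferase MBOA2 were at -0.28 and -0.43 (edgeR adjusted p = 0.244 and 0.393). The fatty acid oxidation enzyme ACADM was at 0.26 (edgeR adjusted p = 0.682), with 0.49 for WWTP and 0.032 for runoff against reference.

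A trio of genes for respiratory chain assembly, protein tagging and an endoplasmic reticulum membrane protein fell by a like amount. higd2a takes part in joining respiratory chain complexes in mitochondria. It had 1.67 to 2.41 CPM in effluent clams (median 2.09) and 2.245 to 3.39 CPM in reference clams (median 2.86), so that the groups touched only at the edge. This was a log2 fold change of -0.47 (SE 0.0871, edgeR adjusted p = 0.0239), with -0.49 for WWTP and -0.46 for runoff against reference. It failed without reference individual 21 (edgeR adjusted p = 0.0519), 29 (0.0547), 30 (0.0536) or 31 (0.0807). Of 14 tested nuclear members of the respiratory chain list, 0 were called higher and 1, higd2a, lower, with 0 higher and 2 lower unadjusted (over all symbols 3.28% higher and 8.27% lower). The list's median was 0.034, at -0.13 in lane 3 and 0.21 in lane 4, and of the 6 tested transcripts of the mitochondrial genome none passed (edgeR, DESeq2 and limma-voom; 0 at an unadjusted p under 0.05 in edgeR).

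RNF34 is a ubiquitin ligase that in mammals marks caspases, the enzymes of programmed cell death, for breakdown. It had 1.77 to 2.74 CPM in effluent clams (median 2.31) and 2.46 to 4.07 CPM in reference clams (median 3.02). In log2 terms the difference was -0.47 (SE 0.0958, edgeR adjusted p = 0.0294), with all 16 effluent clams below the reference median. It failed without reference individual 20 (edgeR adjusted p = 0.0702), 21 (0.0616), 29 (0.0584), 30 (0.0564) or 31 (0.0824). Of 31 tested ubiquitin ligases and proteasome subunits it was the 1 called lower, 0 were called higher, and 0 were higher and 5 lower unadjusted (over all symbols 0.568% called lower and 8.27% lower unadjusted). The proteasome subunit PSA4, a further example, was at 0.22 (edgeR adjusted p = 0.457), with 0.48 for WWTP and -0.043 for runoff against reference.

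Macoilin is a membrane protein of the endoplasmic reticulum that in nematodes and mammals is known from neurons. It had 7.05 to 11.3 CPM in effluent clams (median 8.00) and 9.25 to 15.8 CPM in reference clams (median 12.1; log2 fold change -0.46, SE 0.103, edgeR adjusted p = 0.0439). PLXA1, plexin A1, a receptor for semaphorins that guides cell movement, had 5.87 to 11 CPM in effluent clams (median 8.39) and 8.69 to 15.1 CPM in reference clams (median 11.9; log2 fold change -0.53, SE 0.118, edgeR adjusted p = 0.0431). For both genes all 16 effluent clams lay below the reference median while the ranges overlapped. Macoilin held in 9 and PLXA1 in 7 of 24 fits with 1 library left out, and without reference individual 31 their edgeR adjusted p was 0.151 and 0.122.

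Apart from agr-1, the symbol with the largest fall was VKT2, named for a venom-type Kunitz inhibitor of serine proteases. It had 9.18 to 41.5 CPM in effluent clams (median 15.1) and 18.8 to 41.6 CPM in reference clams (median 34.1). The effluent clams lay below the reference median in 15 of 16 cases, with WWTP individual 41 at 41.5 CPM as the exception and the next WWTP clam at 22.2 CPM. It had a log2 fold change of -0.89 (SE 0.203, edgeR adjusted p = 0.046), with -0.86 for WWTP and -0.92 for runoff against reference, and it held in 5 of 24 fits with 1 library left out, with an edgeR adjusted p of 0.0104 without that WWTP clam and 0.12 without reference individual 31.

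By contrast, agr-1, named for the nematode agrin of basement membranes, had 0.187 to 1.74 CPM in effluent clams (median 0.703) and 0.282 to 51.2 CPM in reference clams (median 0.904). Reference individual 30 alone was high, and the next reference clam was at 1.292 CPM. The log2 fold change of -3.28 (SE 0.742, edgeR adjusted p = 0.0455) became -0.085 without that clam (edgeR adjusted p = 1), and it was -0.078 in DESeq2 (adjusted p = 0.984) and -0.48 in limma-voom (adjusted p = 0.798). The same clam was highest among reference clams for SAA2.2.2, whose log2 fold change was 2.85 without it (edgeR adjusted p = 0.0516).

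Genes of the nucleolus and of RNA binding had the most members higher in effluent clams at the unadjusted threshold, although none passed after adjustment. Of 36 tested members, 10 were higher and 0 lower in edgeR without adjustment, against 3.28% higher and 8.27% lower over all symbols, and the median log2 fold change was 0.092. DESeq2 called 2 and limma-voom 3 higher. Safb, a scaffold attachment factor that binds chromatin and RNA, had 47.9 to 88.9 CPM in effluent clams (median 60.3) and 42.1 to 54.7 CPM in reference clams (median 48.2; log2 fold change 0.38, SE 0.099, edgeR adjusted p = 0.0835). NUCL, nucleolin, which acts in ribosomal RNA production, had 126 to 235 CPM in effluent clams (median 162.9) and 120 to 160 CPM in reference clams (median 131; log2 fold change 0.34, SE 0.0985, edgeR adjusted p = 0.116). HNRL1, a heterogeneous nuclear ribonucleoprotein of the U type, was at 0.49 (SE 0.144, edgeR adjusted p = 0.128).

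The sites and lanes contributed unequal values. NUCL was at 0.57 for WWTP and 0.11 for runoff against reference, and the effluent sites differed (edgeR adjusted p = 0.0485). Safb was at 0.55 and 0.20 (edgeR unadjusted p = 0.00434 between the effluent sites). At the unadjusted threshold, lane 4 alone had 14 members higher and 1 lower, and lane 3 alone had 0 higher and 1 lower. The list's median was 0.25 in lane 4 and -0.028 in lane 3, while the difference in total counts between effluent and reference clams had an exact permutation p of 0.0141 in lane 4 and 0.962 in lane 3. With libraries scaled by their totals alone 5 were higher and 1 lower, and the part of library depth was not tested. As further examples, the RNA methyltransferases NSUN5 and NSUN2 were at 0.35 and 0.27 (edgeR adjusted p = 0.233 and 0.241).

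**Figure D3:**
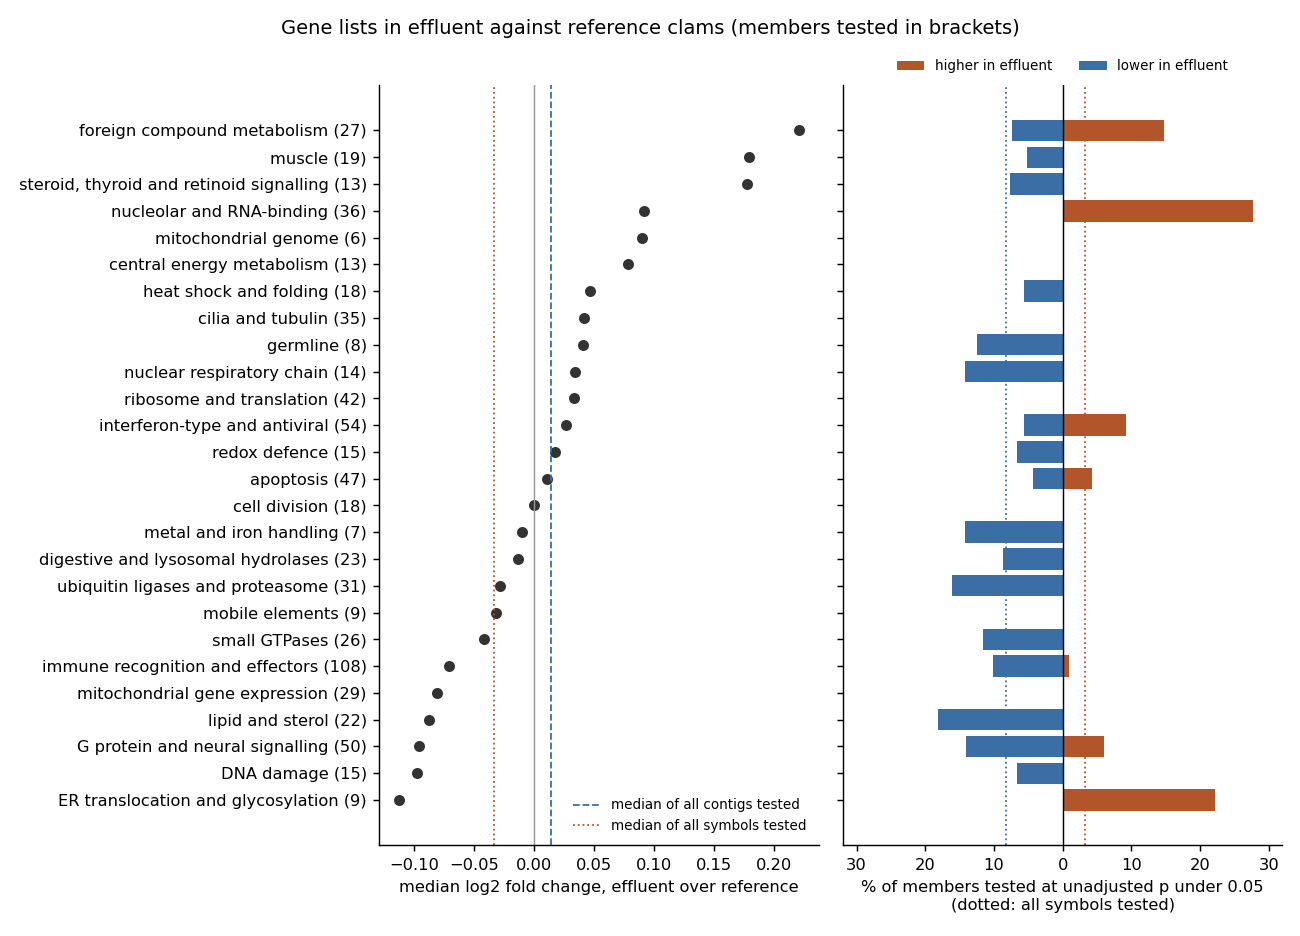
Median log2 fold change of effluent over reference clams for the 26 lists with at least 5 tested members (left) and the percentage of members at an unadjusted p under 0.05 in edgeR, lower drawn to the left and higher to the right (right); lines give the values over all contigs or all symbols tested. Foreign compound metabolism has the highest median (0.22) and nucleolar and RNA-binding genes the largest share higher (10 of 36), none of them past the adjusted threshold, and the nucleolar list has 0 higher in lane 3 alone.

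Lists of general stress gave no call. Of 18 heat shock and folding genes none passed (edgeR, DESeq2 and limma-voom) and 1 was lower at an unadjusted p under 0.05, namely HSF1, the transcription factor that switches on heat shock genes, with 1.75 to 3.1 CPM in effluent and 2.15 to 3.87 CPM in reference clams (log2 fold change -0.33, SE 0.108, edgeR adjusted p = 0.17). None of 15 redox defence genes and none of 7 metal and iron genes passed (edgeR, DESeq2 and limma-voom), with 0 higher and 1 lower in each in edgeR unadjusted. As further examples, MT, the metal-binding metallothionein, averaged 308 CPM in effluent and 370 CPM in reference clams (-0.27 on the log2 scale, edgeR adjusted p = 0.594), and the superoxide dismutase SODC.1.3 averaged 101 CPM in effluent and 92.4 CPM in reference clams (0.12, edgeR adjusted p = 0.716). Of 15 DNA damage genes none passed in any of these tools and BRCA1.2.2 was lower at an unadjusted p under 0.05 (-0.50 on the log2 scale, edgeR adjusted p = 0.285). Apoptosis genes gave 0 calls among 47 (edgeR, DESeq2 and limma-voom), with 2 higher and 2 lower in edgeR unadjusted. A p that misses the threshold does not show that these genes were equal.

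Steroid, thyroid and retinoid signalling, of interest because effluents can carry hormone-like compounds, had no call among 13 tested members (edgeR, DESeq2 and limma-voom; 0 higher and 1 lower in edgeR unadjusted). RXR, the retinoid receptor that pairs with many nuclear receptors, had 2 to 4.96 CPM in effluent clams (median 3.14) and 3 to 5.07 CPM in reference clams (median 4.25; log2 fold change -0.41, SE 0.136, edgeR adjusted p = 0.182). Over the list the median was 0.18, at 0.66 in lane 3 and -0.25 in lane 4. As a further example, the yolk protein precursor Vg.1.2, used in other animals to read exposure to oestrogens, averaged 1743 CPM in effluent and 2014 CPM in reference clams (-0.22 on the log2 scale, edgeR adjusted p = 0.961).

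Lists of basic cell functions gave no call in edgeR, DESeq2 or limma-voom. They comprise 42 genes of the ribosome and translation (median log2 fold change 0.033), 29 of mitochondrial gene expression (-0.081), 13 of central energy metabolism (0.078), 18 of cell division (-4.56e-05), 9 of translocation into the endoplasmic reticulum and glycosylation (-0.11), 9 of mobile elements (-0.032) and 23 digestive and lysosomal hydrolases (-0.013). At an unadjusted p under 0.05 in edgeR, 2 endoplasmic reticulum genes were higher, 2 hydrolases were lower (among them engase, at -0.29 with an edgeR adjusted p of 0.181) and no member of the other 5 lists differed. The same holds for lists that mark other tissues, with 19 muscle genes (median 0.18), 35 of cilia and tubulin (0.042) and 8 of the germline (0.041), where 1 muscle gene and 1 germline gene were lower at that threshold. Muscle, cilia and germline medians were negative in lane 3 (-0.35, -0.33 and -0.71) and positive in lane 4 (0.79, 0.33 and 0.84). In lane 4 alone 11 ribosome and 5 mitochondrial gene expression members were higher and 0 lower unadjusted (98 of 1584 symbols higher). In lane 3 alone 0 members of these 2 lists were higher, and 1 and 3 were lower. Cell division had 5 members lower in lane 3 (138 of 1587 symbols lower) and 2 higher in lane 4.

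Among genes with a symbol, 5 came nearest to a call in the upward direction besides SAA2.2.2. They include both ADHX contigs. METK2, which makes the methyl donor S-adenosylmethionine, had 0.530 to 1.71 CPM in effluent clams (median 0.945) and 0.504 to 0.763 CPM in reference clams (median 0.7; log2 fold change 0.58, SE 0.137, edgeR adjusted p = 0.0539). TGOLN2, a protein of the Golgi network, had 0.408 to 1.33 CPM in effluent and 0.303 to 0.648 CPM in reference clams (log2 fold change 0.72, SE 0.17, edgeR adjusted p = 0.0551). WSCD2, named for a sulfotransferase with WSC domains, had 0.0375 to 3.33 CPM in effluent clams (median 0.332) and 0.0283 to 0.312 CPM in reference clams (median 0.0757; log2 fold change 2.25, SE 0.558, edgeR adjusted p = 0.0653). Its lowest values lie near the 0.0323 to 0.0792 CPM that a count of 0 allows, which leaves the size of its difference uncertain.

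Of these genes METK2 and WSCD2 differed between the effluent sites. Against reference METK2 was at 0.90 for WWTP (SE 0.155) and 0.26 for runoff (SE 0.155) on the log2 scale. WSCD2 was at 3.90 (SE 0.612) and 0.61 (SE 0.624), so a smaller rise in runoff clams cannot be told from none. METK2 had 0.886 to 1.71 CPM in WWTP clams (median 1.29) and 0.530 to 1.02 CPM in runoff clams (median 0.795), a log2 difference of 0.63 (SE 0.155, edgeR adjusted p = 0.0467 for WWTP against runoff over all contigs). WSCD2 had 0.198 to 3.33 CPM in WWTP clams (median 1.40) and 0.0375 to 0.424 CPM in runoff clams (median 0.115; log2 difference 3.3, SE 0.594, edgeR adjusted p = 0.0132). In both genes the median of runoff clams lay nearer to that of reference clams than to that of WWTP clams.

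Called contigs without a symbol fell by up to 2.35 (locus-named) and 2.4 (number-only) on the log2 scale, and 3 of each lay beyond 2-fold. Those described here are the falls of largest size at a mean of at least 5 CPM and with both effluent medians below the reference median. LOTGIDRAFT_153071 had 4.38 to 14.2 CPM in effluent clams (median 7.86) and 9.22 to 32.4 CPM in reference clams (median 17.3; log2 fold change -1.09, SE 0.25, edgeR adjusted p = 0.0463). LOTGIDRAFT_206409 had 5.15 to 17.1 CPM in effluent clams (median 7.52) and 9.48 to 31.8 CPM in reference clams (median 14.9; log2 fold change -0.91, SE 0.204, edgeR adjusted p = 0.0433). For each, nearly all effluent clams lay below the reference median (16 and 15 of 16). Both were larger in lane 3 (-1.55 and -1.24) than in lane 4 (-0.61 and -0.52), and without reference individual 21 their edgeR adjusted p was 0.117 and 0.114.

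Most called contigs differed by less than 2-fold. The median log2 fold change was 0.56 over the 129 higher and -0.55 over the lower, values that the threshold itself selects. Beyond 2-fold lay 32 of the higher and 7 of the lower, against 531 of all 57593 contigs tested. All 16 effluent clams lay beyond the reference median in 201 of the 292, against 843 of all contigs tested. The calls were made on these same values, so both counts are raised by the selection. Complete separation of the 16 effluent clams from the 8 reference clams was rare, with 3 contigs higher (0.00521% of those tested) and 5 lower (0.00868%), none with a symbol (locus-named 1 higher, 0.0052%, and 3 lower, 0.0156%; number-only 2 and 2, 0.00544% each).

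The contrast of WWTP with runoff clams compares no reference library, but it shares each contig's estimated dispersion with the contrast used for calling, so its rate among called contigs is given as a description. In it 21 of the 292 called contigs differed at an adjusted p of 0.05 (edgeR), 17 of them among the 129 higher and 4 among the lower, against 609 of all 57593 contigs (1.06%). At an unadjusted p under 0.05, 41 of the higher (31.8%) and 33 of the lower (20.2%) differed, against 13.5% of all contigs tested. None of the 10 called symbols differed between the effluent sites at an adjusted p of 0.05 (edgeR; 1, ACSL1, at an unadjusted p under 0.05). The effluent sites entered with equal weight, so a contig that moved at 1 site alone could still be called. Set against the shared reference clams by itself, each site gave its own count, 846 contigs for WWTP (1.47%) and 67 for runoff (0.116%).

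**Figure D4:**
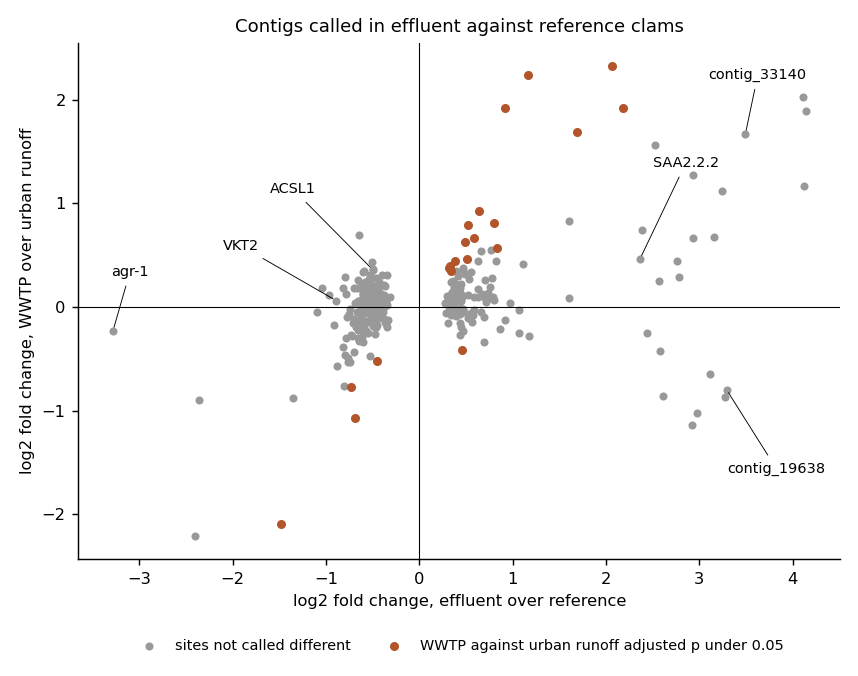
Each of the 292 called contigs by its log2 fold change of effluent over reference clams and its log2 fold change of WWTP over urban runoff clams; coloured points have an adjusted p under 0.05 for the difference between the effluent sites. The coloured points number 21, of which 17 lie among the contigs higher in effluent, and none of the 10 symbols is among them.

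How many contigs were called depended on single libraries. With reference individuals 31, 29, 30, 21 and 20 left out in turn, 7, 17, 20, 72 and 116 contigs were called. With WWTP individuals 42 and 46 left out it was 136 and 143, and with runoff individuals 50, 63, 56 and 55 left out it was 142, 147, 177 and 185. The count was 773 without runoff individual 49 and 517 without reference individual 25. Of the 292 called contigs, 7 passed in each of these 24 fits, 3 higher and 4 lower, and none of the 7 carries a symbol. Leaving out the 6 libraries lowest in digestive hydrolases gave 0 calls (edgeR; 6203 contigs at an unadjusted p under 0.05), and so did lane 3 alone (5691) and lane 4 alone (6932). Those libraries were picked by the mean log2 CPM of only 6 hydrolases, chosen for an r under -0.9 with the first principal component. The cut therefore follows that component more than the summed hydrolases. Reference individual 30 (sum 476.1 CPM) was kept, and runoff individual 56 (sum 1089 CPM) was left out. In lane 3 and in lane 4 the 10 symbols kept their direction.

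**Figure D5:**
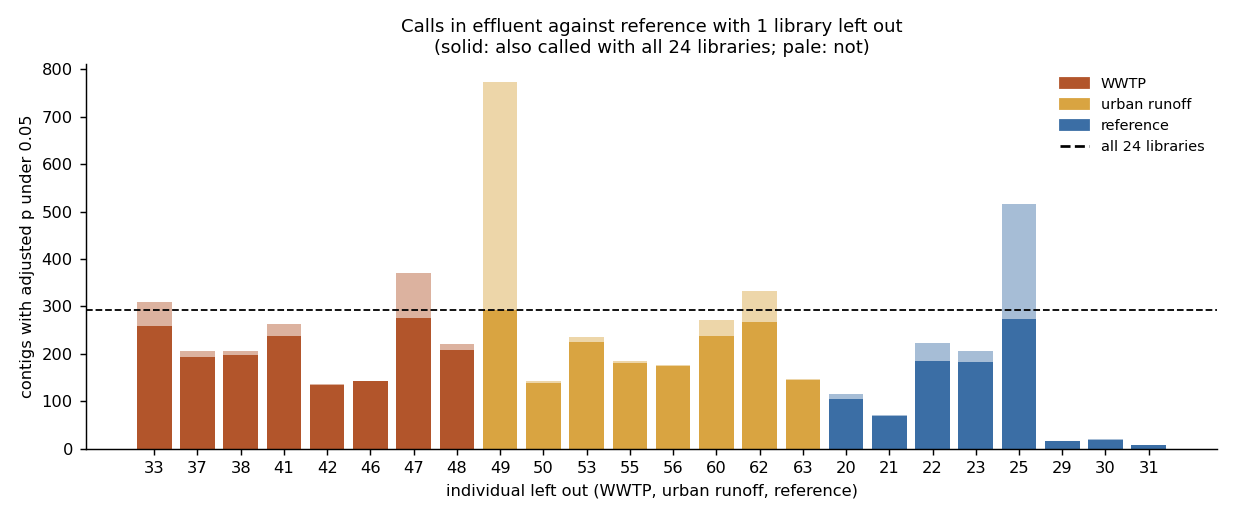
Number of contigs called in effluent against reference clams (adjusted p under 0.05) with each library left out in turn, by site; the solid part of a bar is also called with all 24 libraries, whose count of 292 is the dashed line. The count falls to 7 without reference individual 31 and reaches 773 without runoff individual 49.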

How the data were processed

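RNA was sequenced from the digestive gland of 24 clams, 1 library each; per the labels' protocols, extraction used a Promega SV Total RNA system and library preparation TruSeq RNA v2, which does not mark strand. The authors deposited raw read counts per assembled contig, 1 column per library and 58291 contigs. BWA 0.7.12 and SAMtools 1.1 appear in the submitters' processing notes; the assembly, counting rule and annotation were not given in the sources used here. Sites came from the labels and lanes from the column descriptions (4 libraries per site and lane). The table gives 1598 contigs a symbol, 19394 a locus number or tag (also clone-like tags, a rule widened once the names were seen) and 37299 a number only. Roles given to symbols are those of the gene so named in other animals.

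The 57593 contigs kept by filterByExpr (minimum count 10, by site) were scaled with TMM and fitted with edgeR 4.0.16 (robust quasi-likelihood, R 4.3.3), 1 column per site and no covariate. The contrast was the mean of WWTP and runoff minus reference, with Benjamini-Hochberg adjustment over all contigs and a threshold of 0.05. The 698 contigs removed held 0.00718% of counts. A count of 0 allows up to 3 counts, or 0.0792 CPM in the smallest and 0.0323 CPM in the largest scaled library; this limit covers counting error only. Biological variation had a coefficient of 45.8%. Tested on simulated data of 57593 contigs, this contrast called 19.4% of the changes of 1.5-fold, 62.7% of those of 2-fold and 90.9% of those of 4-fold, and 4.17% of its calls were false. Each simulated contig varied independently of the others, and changes were set only in contigs with higher counts. In the clam libraries many contigs vary together along the first principal component, so these rates need not hold there. Library measures were compared by two-sided exact permutation over 735471 splits, or 495 within a lane.

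Named genes were the 10 symbols of largest change in each direction past the threshold at a mean of at least 2 CPM, up to 4 passing members per list, 5 symbols of smallest p per direction, and 2 rising and 2 falling contigs without a symbol at a mean of at least 5 CPM and with both effluent medians beyond the reference median; where fewer than 4 symbols passed, the 5 nearest were named. The members, lists and tests were chosen with earlier results of these data known, and the lists were refined once the names were seen. Of 27 lists, the transporters of foreign compounds (2 tested members, ABCA2 and ABCB9, none called in edgeR, DESeq2 or limma-voom, 0 at an unadjusted p under 0.05) were too few to describe. Alternatives were other scalings, filters, lane as a term, single lanes, 1 effluent column, DESeq2 1.42.0, limma-voom (limma 3.58.1), the first principal component as a term, 6 libraries left out and each library left out in turn. No library was a copy of another (highest correlation 0.9767). Figures were drawn with matplotlib 3.10.9.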

Additional observations from a re-analysis of the deposited data

Results flagged for a closer look

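The 63 groups of 8 libraries were 19 contigs named by rule, library totals and the first principal component at each site. In 11 of them, 1 library was set apart from the rest by a Dixon ratio above the critical value for 8 samples. At that value chance flags about 1 in 20 groups if they are independent and normally distributed. CPM were not log-transformed and some of these contigs varied together, so no excess over chance is read from the count. In effluent clams, runoff individual 60 had SAA2.2.2 at 20.9 CPM (next 9.855), and runoff individual 56 had contig_33140 at 26.41 CPM (next 12.34) and contig_19638 at 1120 CPM (next 517.1). VKT2 stood at 41.5 CPM in WWTP individual 41 (next 22.24), ACSL1 at 3.189 CPM in runoff individual 62 (next 2.256) and LOTGIDRAFT_206409 at 10.95 CPM in WWTP individual 47 (next 8.665). In reference clams, individual 30 held agr-1 at 51.19 CPM (next 1.292), SAA2.2.2 at 4.696 CPM (next 1.739) and WSCD2 at 0.3124 CPM (next 0.1483). Individual 20 held contig_33140 at 3.335 CPM (next 1.394) and individual 21 held LOTGIDRAFT_206409 at 31.78 CPM (next 18.28).

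In 2 named contigs the effluent sites differed in the test of that difference. The log2 fold change of WWTP over runoff was 0.633 for METK2 (edgeR adjusted p = 0.0467) and 3.3 for WSCD2 (edgeR adjusted p = 0.0132).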

How the results depend on the processing

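No paired analysis was possible because no individual number occurs at more than 1 site, and replicates were numbered by accession. The count of contigs called, 292 in edgeR, stayed within 1.5 times with RLE factors, other filters, lane as a term or 1 effluent column. It was 175 with upper-quartile factors, 4 with library totals alone (5505 at an unadjusted p under 0.05), 0 in lane 3, 0 in lane 4 and 0 without the 6 libraries lowest in digestive hydrolases, against 1229 in DESeq2, 1068 in limma-voom and 1327 with the first principal component as a term. Leaving out 1 library gave 7 to 773. Single lanes and 18 libraries hold fewer samples; otherwise the cause was not tested. Of the called contigs, 21 differed between WWTP and runoff; this was 9, 0, 0, 0 and 0 under the first settings in that order, 126, 93 and 141 under the last, and 1 to 33 with 1 library left out. The difference in library totals was past the threshold in lane 4 (-18.19 in units of 1e6), and that of the first principal component changed sign there (69.82). Under no scaling did the median of all contigs shift by over 0.1 in log2. Among single genes, FGL2.3.3 changed sign in lane 3 (0.01115) and in DESeq2 (0.4118), and with 1 library left out it ranged from -2.207 to 0.4525, the positive value without reference individual 30; every other contig named by rule or with an adjusted p from 0.05 to 0.2 kept its direction under the alternatives that gave it a value. All 10 symbols lost the call with library totals alone, in each lane and without the 6 libraries. METK2, TGOLN2 and WSCD2 had no value under a mean of at least 1 CPM. Genes under 1 CPM and changes under 2-fold are the least well measured.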

Other observations

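SAA2.2.2 and contig_19638, both higher in effluent clams, were not highest in the same animals. The effluent clams highest in SAA2.2.2 were runoff individual 60 (20.9 CPM) and WWTP individuals 48 (18.49 CPM), 46 (17.89 CPM) and 38 (17.12 CPM). Their contig_19638 values were 82.77, 132.9, 62.05 and 42.36 CPM, below the effluent median of 205.4 CPM. The effluent clams highest in contig_19638 were runoff individual 56 (1120 CPM) and WWTP individual 37 (581.7 CPM), where SAA2.2.2 stood at 1.944 and 8.452 CPM. The clams also differed on the first principal component, which was high where digestive enzymes were low. It was -147.4, -158, -131.6 and -92.39 in individuals 60, 48, 46 and 38. In individuals 56 and 37 it was 251.9 and -31.16, against an effluent median of -59.22. These clams were picked for their values, no test was made, and the part of tissue makeup was not tested.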
